A study of Homo sapiens with 12 samples.

Results

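The Notch genes described here are 3 ligands (JAG1, JAG2 and DLL4), 2 receptors (NOTCH1 and NOTCH4) and 5 targets (HES1, HES4, HEY1, HEY2 and NRARP), 10 of 23297 genes with a symbol of their own in the count table. They were chosen by name, with earlier results of these data known, and all 10 were among the 14334 genes with enough counts to be tested. They were measured by RNA sequencing in human brain microvascular endothelial cells, the cells of the blood-brain barrier, bought from a commercial supplier and grown in culture. Transfection lasted 48 h, with siGlut1, an siRNA that silences SLC2A1, which encodes the main glucose transporter of the blood-brain barrier, or with a non-silencing control siRNA. The groups were siGlut1 in high glucose (n = 3), non-silencing siRNA in high glucose (n = 2), siGlut1 in control medium (n = 3) and non-silencing siRNA in control medium (n = 3). Every group had been transfected, and the sources used here do not give the glucose concentrations. Nor do they say whether replicates were separate cultures, so each p-value covers the spread among these libraries alone, which could be technical. Below, siGlut1 high 1 stands for the first replicate of siGlut1 in high glucose, and so on.

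Notch signalling passes between touching cells. A Delta or Jagged ligand on one cell binds a Notch receptor on its neighbour, the receptor is cut by an ADAM protease and then by gamma-secretase, and its freed intracellular part enters the nucleus. There it joins the DNA-binding protein RBPJ (also called CSL) and a Mastermind coactivator, and together they switch on genes of the HES and HEY families and NRARP. In endothelium the pathway is known for restraining sprouting and for arterial identity, and in mouse retina DLL4 and JAG1 act on sprouting in opposite directions.

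The stretches before the transcription start of 3 targets show letters that RBPJ is known to bind. They were chosen because HES4 and HEY2 rose with siGlut1 when both media were averaged while HES1 gave no such call. They are also the only ones searched that held a match, and NRARP, another target without a call, held none. Each printed stretch runs 5′ to 3′ on the gene's strand from 250 bases before the start to 10 bases after it, in RefSeq's GRCh38.p14. Capitals mark every match to TGGGAA, the core of the RBPJ site, on either strand (TTCCCA on the opposite one). HES1 lies at chr3:194135898-194136157 on the plus strand, HES4 at chr1:1000088-1000347 on the minus strand and HEY2 at chr6:125749382-125749641 on the plus strand.
HES1: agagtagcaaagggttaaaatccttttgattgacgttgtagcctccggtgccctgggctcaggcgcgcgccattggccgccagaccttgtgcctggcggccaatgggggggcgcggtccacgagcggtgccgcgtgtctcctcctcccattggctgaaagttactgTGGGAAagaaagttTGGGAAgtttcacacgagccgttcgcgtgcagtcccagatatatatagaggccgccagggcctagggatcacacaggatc
HES4: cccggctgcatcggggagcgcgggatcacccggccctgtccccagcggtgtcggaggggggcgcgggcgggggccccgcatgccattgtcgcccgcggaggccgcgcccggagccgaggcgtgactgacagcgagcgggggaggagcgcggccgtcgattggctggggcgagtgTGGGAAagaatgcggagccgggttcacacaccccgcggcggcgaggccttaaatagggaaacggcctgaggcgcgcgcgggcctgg
HEY2: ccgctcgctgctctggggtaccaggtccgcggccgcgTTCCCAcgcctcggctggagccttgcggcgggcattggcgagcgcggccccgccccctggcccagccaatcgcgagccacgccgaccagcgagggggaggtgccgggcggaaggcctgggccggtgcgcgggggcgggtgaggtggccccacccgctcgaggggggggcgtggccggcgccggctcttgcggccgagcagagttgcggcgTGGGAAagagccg
HES1 had 2 matches, at bases -84 to -79 and -70 to -65 from the start. HES4 had 1, at -76 to -71, and HEY2 had 2, at -213 to -208 on the opposite strand and across the start at -3 to 3. The search covered 250 bases before to 50 after each start for 9 of the 10 genes, those in the RefSeq promoter table, and HEY1 was not among them. The promoters of JAG1, JAG2, DLL4, NOTCH1, NOTCH4 and NRARP held no match to these letters in this window. The same letters occurred in 24.3% of 27305 promoters of this length, and the longer GTGGGAA, which overlaps the core and was present in HES1, HES4 and HEY2, in 6.28%. The N box CACNAG, the letters that HES repressors are known to bind, was found in HES1 at 4 places, in NOTCH1 at 2 and in NOTCH4, DLL4 and NRARP at 1 each, and in 38% of all promoters. CACGTG, an E box, was in none of the 9 and in 7.43% of all. A match to letters is a description of the sequence and shows no binding.

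**Figure D1:**
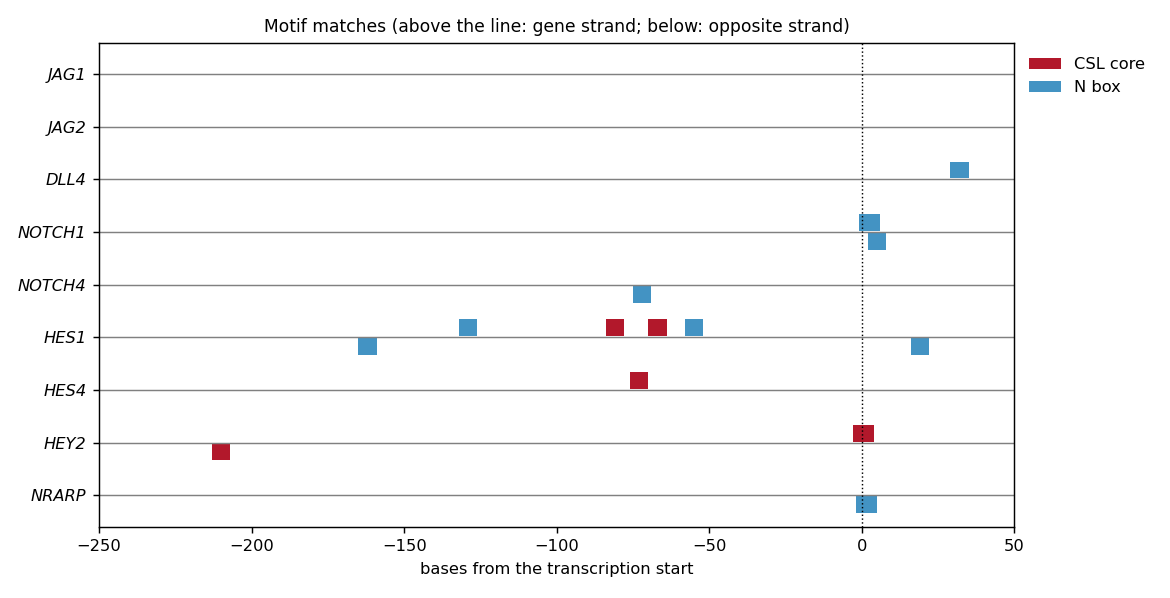
Positions of matches to the RBPJ (CSL) core TGGGAA (red) and the N box CACNAG (blue) in the promoters of 9 Notch genes, against distance in bases from the transcription start; boxes above a line are on the gene's strand and boxes below it on the opposite strand. The RBPJ core was matched in HES1, HES4 and HEY2, and HES1 also held 4 N boxes.

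The column of non-silencing high 2 was the average of non-silencing high 1 and 3 in 23397 of 23398 entries, so it was left out and 11 libraries remained. Their deposited counts totalled 40135082 to 90536476, with a median of 49686182. SLC2A1, the target of the siRNA, fell with siGlut1 by 1.61 ± 0.14 SE on the log2 scale in high glucose and by 1.58 ± 0.13 SE in control medium. All 10 endothelial markers were tested, and their summed level was 1200 to 1620 RPKM (the authors' value, scaled for gene length and library total) over the libraries, led by the cadherin CDH5 at 393 RPKM. Of 10 mural cell markers, 6 were tested, and RGS5, with a mean of 243 RPKM, made up most of their sum. That sum was lower with siGlut1, at 224 to 267 RPKM in siGlut1 high libraries against 316 to 322 RPKM in non-silencing high libraries, and at 202 to 212 RPKM in siGlut1 control libraries against 243 to 292 RPKM in non-silencing control libraries. Other defining mural markers were at or near 0 in every group: the group means of PDGFRB were 0.0162 to 0.0416 RPKM, and those of CSPG4 and KCNJ8 at most 0.0127 and 0.00793 RPKM. ACTA2, the smooth muscle actin, was at 10.6 RPKM in siGlut1 high libraries against 10.5 RPKM in non-silencing high libraries, and at 11.3 RPKM in siGlut1 control libraries against 10.6 RPKM in non-silencing control libraries. In bulk RNA fewer cells of a type and less RNA per cell cannot be told apart. Fibroblast markers summed to 0.303 to 0.734 RPKM, astrocyte markers to 0 to 0.0345 RPKM with AQP4 at 0, leukocyte markers to 19.8 to 37.5 RPKM through CD68, neuronal markers to 5.76 to 8.33 RPKM through SYT1 with STMN2 at 0, and epithelial markers to 21.5 to 72.4 RPKM through KRT19 with CDH1 at 0.

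Per unit of length, NOTCH1 was the most abundant of the 10 transcripts and HEY2 the least. NOTCH1 averaged 23.7 RPKM over the 11 libraries, above 80% of tested genes, whose median was 6.37 RPKM. Next came the ligand JAG1 with 15.7, the target HES1 with 14.1, the ligand JAG2 with 12.6, the receptor NOTCH4 with 9.41 and the feedback inhibitor NRARP with 8.45 RPKM. The ligand DLL4 averaged 4.04 RPKM. The lowest levels were those of HES4 with 1.5, HEY1 with 1.28 and HEY2 with 0.745 RPKM, the last above only 19.8% of tested genes. The libraries' ranges of most neighbours in this order overlapped. DLL4 was an exception on both sides, since its range of 3.2 to 5.59 RPKM met neither that of NRARP, 6.64 to 10.4 RPKM, nor that of HES4, 0.539 to 2.96 RPKM.

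The 10 genes also varied to very different degrees between libraries. HEY2 differed 6.85-fold and HES4 5.49-fold between their highest and lowest library in RPKM. JAG2 differed 2.34-fold, HEY1 2-fold, NOTCH1 1.96-fold, DLL4 1.75-fold and NRARP 1.56-fold. NOTCH4, JAG1 and HES1 were the steadiest, with 1.31-fold, 1.3-fold and 1.28-fold.

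**Figure D2:**
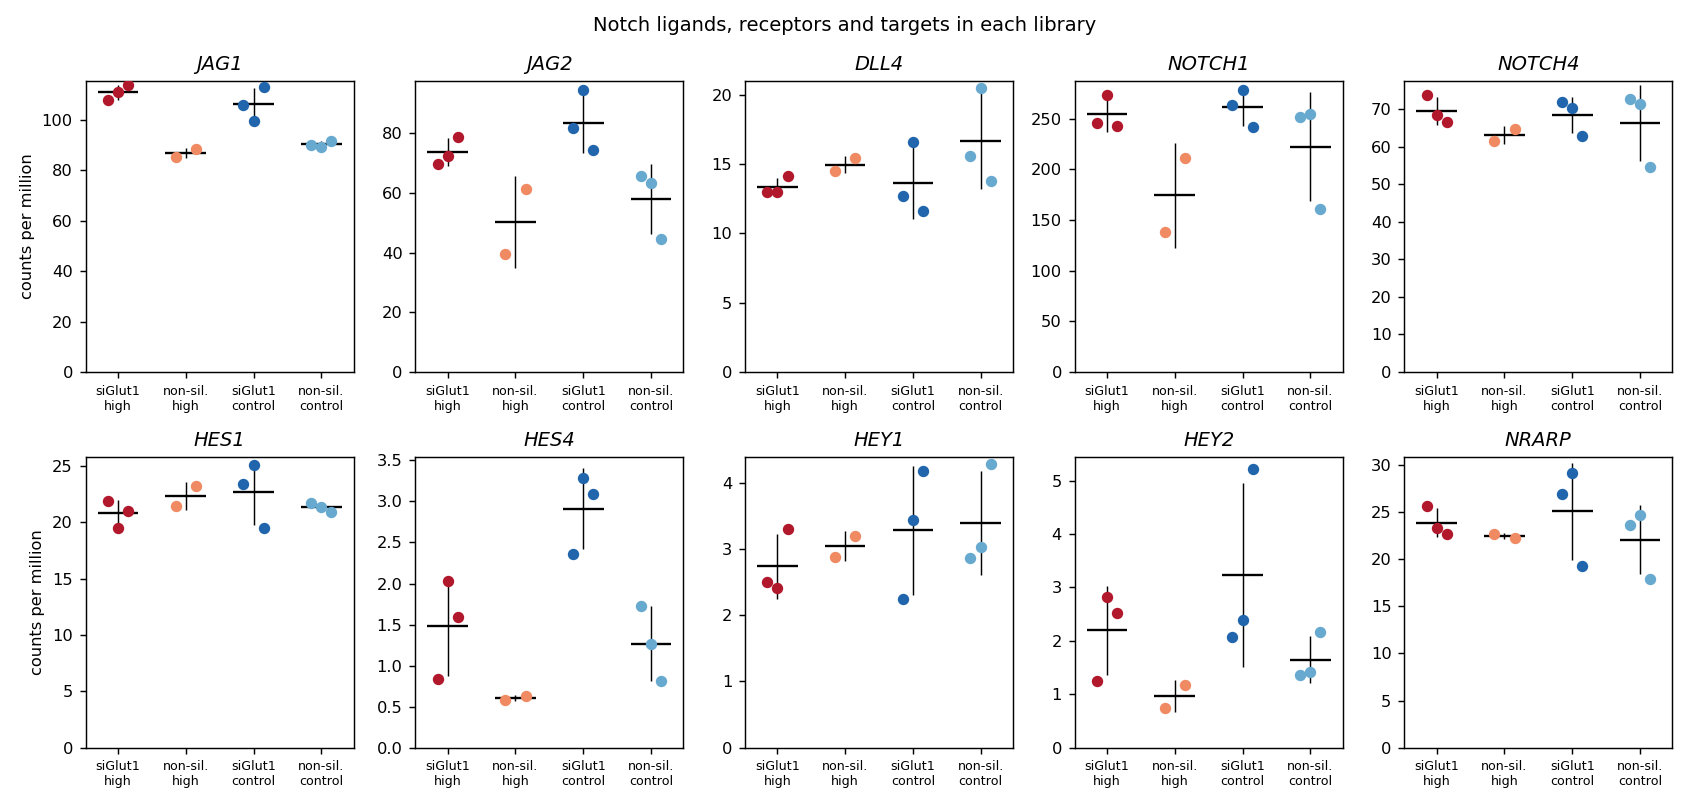
Level of each Notch gene in CPM (vertical axes, from 0) in every library, by siRNA and medium; points are libraries, horizontal bars group means and vertical bars 1 SD. JAG1 and JAG2 lay higher in all 6 siGlut1 libraries than in all 5 non-silencing libraries, and HES4 lay lowest in the 2 non-silencing high libraries.

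The first question is how these genes differ with siGlut1 in each medium. No other siRNA against SLC2A1 and no rescue was among the groups, so loss of Glut1 and other effects of siGlut1 cannot be told apart. With siGlut1, JAG1 rose in high glucose, and JAG1, JAG2, HES4 and HEY2 rose when both media were averaged. DLL4, NOTCH4, HES1, HEY1 and NRARP gave no call in either medium or in the average, and NOTCH1 lay between, with a positive difference that did not pass. Levels from here on are CPM, counts scaled to a common library size, and calls are p-values under 0.05 in the quasi-likelihood test of edgeR, adjusted by Benjamini-Hochberg over all 14334 genes tested. The 2 comparisons of siGlut1 with non-silencing siRNA share no library. All groups were in the same fit with a shared estimate of the spread, so libraries outside a comparison also affect its calls.

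JAG1 (chromosome 20, 10618332 to 10654694 in hg19), a Jagged ligand that endothelial cells present to their neighbours, had 108, 111 and 114 CPM in siGlut1 high 1, 2 and 3, against 85.5 and 88.4 CPM in non-silencing high 1 and 3. In control medium it had 106, 99.7 and 113 CPM in siGlut1 control 1, 2 and 3, against 90.2, 89.1 and 91.8 CPM in non-silencing control 1, 2 and 3. Every siGlut1 library was above every non-silencing library, with no overlap in either medium or across them. The difference was 0.35 ± 0.07 SE on the log2 scale in high glucose, 1.28-fold, and passed the threshold (adjusted p = 0.0229). In control medium it was 0.23 ± 0.06 SE, 1.18-fold, and did not pass (adjusted p = 0.0717), and averaged over both media it was 0.29 ± 0.05 SE (adjusted p = 0.00255). The call in high glucose ended with each library's trend on gene length removed (0.28, adjusted p = 0.0623). It also ended without non-silencing high 1 (0.33, adjusted p = 0.182), non-silencing high 3 (0.38, adjusted p = 0.153), siGlut1 high 2 (0.35, adjusted p = 0.0742) or siGlut1 high 3 (0.34, adjusted p = 0.0755).

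JAG2 (chromosome 14, 105608076 to 105635161), the other Jagged ligand, moved further but with a wider spread. It had 69.6, 72.5 and 78.8 CPM in siGlut1 high 1, 2 and 3, against 39.5 and 61.3 CPM in non-silencing high 1 and 3. In control medium JAG2 had 81.9, 94.6 and 74.4 CPM in siGlut1 control 1, 2 and 3, against 65.8, 63.5 and 44.5 CPM in non-silencing control 1, 2 and 3. As for JAG1, all 6 siGlut1 libraries were above all 5 non-silencing libraries, and non-silencing high 1 and non-silencing control 3 were the lowest. The differences were 0.55 ± 0.2 SE in high glucose (adjusted p = 0.141) and 0.53 ± 0.17 SE in control medium (adjusted p = 0.127), neither past the threshold. Their average of 0.54 ± 0.13 SE, 1.45-fold, passed (adjusted p = 0.0187). That call ended without non-silencing high 1 (0.40, adjusted p = 0.0863).

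A complete separation of the 6 siGlut1 libraries above the 5 non-silencing ones was met by 4.84% of all tested genes, and by JAG1 and JAG2 among the 10. The third ligand did not share it. DLL4 (chromosome 15, 41221531 to 41231258), the Delta ligand of tip cells in sprouting vessels, had 13, 13 and 14.1 CPM in siGlut1 high 1, 2 and 3, against 14.5 and 15.4 CPM in non-silencing high 1 and 3. In control medium DLL4 had 12.7, 16.6 and 11.6 CPM in siGlut1 control 1, 2 and 3, against 15.6, 20.5 and 13.8 CPM in non-silencing control 1, 2 and 3. The groups did not overlap in high glucose and did in control medium. The averaged difference was -0.22 ± 0.12 SE with a 95% interval of -0.48 to 0.04 (adjusted p = 0.238). Its interval lay below those of JAG1, 0.19 to 0.40, and JAG2, 0.25 to 0.83, and the difference between genes was not tested.

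NOTCH1 (chromosome 9, 139388896 to 139440238), a receptor of endothelial cells needed for arterial identity, had 246, 274 and 243 CPM in siGlut1 high 1, 2 and 3, against 138 and 211 CPM in non-silencing high 1 and 3. In control medium NOTCH1 had 264, 278 and 242 CPM in siGlut1 control 1, 2 and 3, against 252, 255 and 161 CPM in non-silencing control 1, 2 and 3. The groups were apart in high glucose and overlapped in control medium, where only non-silencing control 3 was low. The differences were 0.54 ± 0.2 SE in high glucose (adjusted p = 0.155) and 0.23 ± 0.18 SE in control medium (adjusted p = 0.549), and 0.39 ± 0.13 SE averaged (adjusted p = 0.0759). The average passed with DESeq2 (0.39, adjusted p = 0.0264), and without non-silencing high 3 (0.56, adjusted p = 0.0356). NOTCH4 (chromosome 6, 32162620 to 32191844), a receptor found mainly in endothelium, had 66.5 to 73.7 CPM in siGlut1 high libraries against 61.4 to 64.8 CPM in non-silencing high libraries, and 62.9 to 71.9 CPM in siGlut1 control libraries against 54.5 to 72.7 CPM in non-silencing control libraries. Its differences were 0.14 ± 0.12 SE in high glucose (adjusted p = 0.549) and 0.05 ± 0.1 SE in control medium (adjusted p = 0.868). Without non-silencing control 3, its lowest library, the control-medium difference turned to -0.076.

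Among the targets, HES4 and HEY2 were the 2 that rose when both media were averaged, and both are near the low end of expression. HES4 (chromosome 1, 934342 to 935552), a basic helix-loop-helix repressor of the HES family, had 0.833, 2.03 and 1.59 CPM in siGlut1 high 1, 2 and 3, against 0.583 and 0.632 CPM in non-silencing high 1 and 3. These rest on 40, 118 and 144 counts with siGlut1 against 28 and 32 with non-silencing siRNA. All counts used were even, and whether each count is a separate fragment is not known. In control medium HES4 had 2.36, 3.29 and 3.09 CPM in siGlut1 control 1, 2 and 3, against 1.73, 1.26 and 0.814 CPM in non-silencing control 1, 2 and 3. The groups did not overlap in either medium. Across media siGlut1 high 1 lay below non-silencing control 1 and 2, and siGlut1 high 3 below non-silencing control 1. Its differences were 1.3 ± 0.41 SE in high glucose, 2.46-fold (adjusted p = 0.0999), and 1.21 ± 0.33 SE in control medium, 2.31-fold (adjusted p = 0.074). Averaged it rose by 1.25 ± 0.26 SE (adjusted p = 0.00944), a call that ended without non-silencing high 1 (1.23, adjusted p = 0.0509).

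HEY2 (chromosome 6, 126070732 to 126082415), a related repressor whose zebrafish counterpart gridlock is needed for the aorta, had 1.25, 2.82 and 2.52 CPM in siGlut1 high 1, 2 and 3, against 0.75 and 1.18 CPM in non-silencing high 1 and 3. In control medium it had 2.08, 2.4 and 5.22 CPM in siGlut1 control 1, 2 and 3, against 1.37, 1.42 and 2.16 CPM in non-silencing control 1, 2 and 3. The groups were narrowly apart in high glucose and overlapped in control medium, where siGlut1 control 3 stood far above its group. The differences were 1.19 ± 0.47 SE in high glucose (adjusted p = 0.179) and 0.95 ± 0.39 SE in control medium (adjusted p = 0.234). The average of 1.07 ± 0.31 SE passed (adjusted p = 0.0384), but the call ended without any 1 of 7 of the 11 libraries (0.81 to 1.25, adjusted p = 0.0576 to 0.157): non-silencing high 1 or 3, siGlut1 high 2 or 3, non-silencing control 1 or 2, and siGlut1 control 3.

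HES1, NRARP and HEY1 had averaged differences near 0, with intervals of unequal width. HES1 (chromosome 3, 193853931 to 193856401), the repressor most often read as a Notch target, had 21.9, 19.5 and 21 CPM in siGlut1 high 1, 2 and 3, against 21.5 and 23.2 CPM in non-silencing high 1 and 3. In control medium HES1 had 23.4, 25.1 and 19.5 CPM in siGlut1 control 1, 2 and 3, against 21.7, 21.4 and 20.9 CPM in non-silencing control 1, 2 and 3. The groups overlapped in both media, and the averaged difference was -0.01 ± 0.07 SE with a 95% interval of -0.17 to 0.15 (adjusted p = 0.965). NRARP (chromosome 9, 140194083 to 140196703), an ankyrin-repeat protein that dampens Notch in a feedback loop, had 22.7 to 25.6 CPM in siGlut1 high libraries against 22.2 to 22.7 CPM in non-silencing high libraries, and 19.3 to 29.1 CPM in siGlut1 control libraries against 17.9 to 24.7 CPM in non-silencing control libraries. Its averaged difference was 0.14 ± 0.11 SE, with an interval of -0.11 to 0.39 (adjusted p = 0.46). HEY1 (chromosome 8, 80676245 to 80680098), a repressor paired with HEY2 in vessel development, had 2.41 to 3.3 CPM in siGlut1 high libraries against 2.88 to 3.2 CPM in non-silencing high libraries, and 2.24 to 4.17 CPM in siGlut1 control libraries against 2.86 to 4.29 CPM in non-silencing control libraries. Its averaged difference was -0.1 ± 0.18 SE, with the widest interval of these 3, -0.49 to 0.29 (adjusted p = 0.758).

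**Figure D3:**
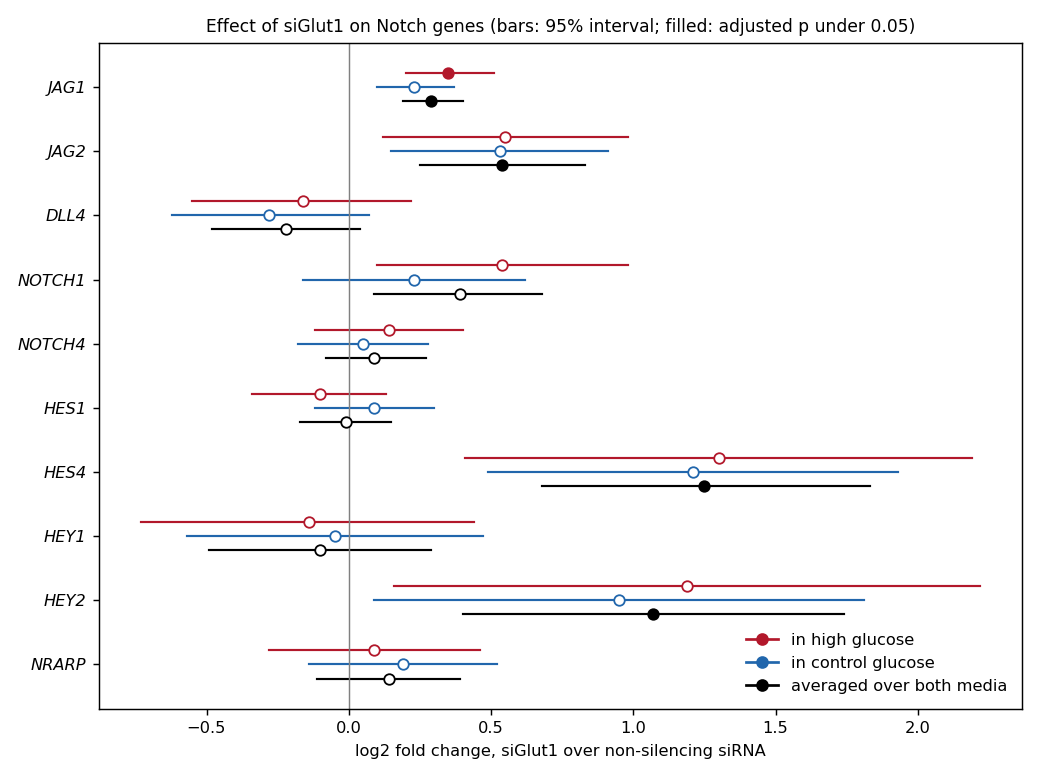
Log2 fold change of siGlut1 over non-silencing siRNA for the 10 Notch genes in high glucose (red), in control medium (blue) and averaged over both (black), with 95% intervals; filled points passed the adjusted threshold. JAG1 passed in high glucose at 0.35, and JAG1, JAG2, HES4 and HEY2 passed in the average at 0.29, 0.54, 1.25 and 1.07.

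Counted over the 10 genes, the test called 1 higher in high glucose and 0 in control medium, where 2.46% and 1.7% of all tested genes were called higher. In control medium 4 of the 10 had an unadjusted p under 0.05, against 17.4% of all genes in either direction, and DESeq2 called 3, namely JAG1, JAG2 and HES4. In the average 4 of the 10 were called higher, against 7.93% of all genes, and 0 lower, against 6.49%. The median log2 fold change of the 10 was 0.25 in high glucose, 0.21 in control medium and 0.22 averaged, beside medians of 0, -0.01 and 0 over all genes tested. In high glucose 7 of the 10 had their siGlut1 libraries above the non-silencing ones and 1 had them below, but with 3 libraries against 2 this was met by 22.5% and 21.9% of all genes. With 3 libraries against 3 in control medium, 3 of the 10 had them above and 0 below, beside 1569 and 1374 of 14334 genes. The 10 were chosen with earlier results of these data known, so these counts and medians are a description and no test of the set.

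Several Notch genes are rich in G and C, and the libraries differed in their levels of such transcripts. HES4 has 73.9% GC, NRARP 67.3%, JAG2 64%, NOTCH1 62.9%, NOTCH4 61.7% and DLL4 59.7%, while HES1, JAG1, HEY2 and HEY1 have 49.9%, 49.6%, 47.6% and 47.3%, near the median of 48.1%. Over 1814 genes with at least 60% GC, the median deviation from the group mean was -0.16 log2 units in non-silencing control 3 and -0.11 in non-silencing high 1, the libraries in which NOTCH1 and JAG2 were lowest. With each library's trend on GC removed, an alternative added after seeing the data, the SEs of NOTCH1, JAG2 and HES4 were smaller and more of the 10 were called. In high glucose NOTCH1 (0.59, adjusted p = 0.0294), JAG2 (0.60, adjusted p = 0.0108), HES4 (1.38, adjusted p = 0.0365) and JAG1 (0.33, adjusted p = 0.0153) then passed, and in control medium JAG2 (0.52, adjusted p = 0.0143) and HES4 (1.24, adjusted p = 0.0292). The direction of all 10 was kept in both media.

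**Figure D4:**
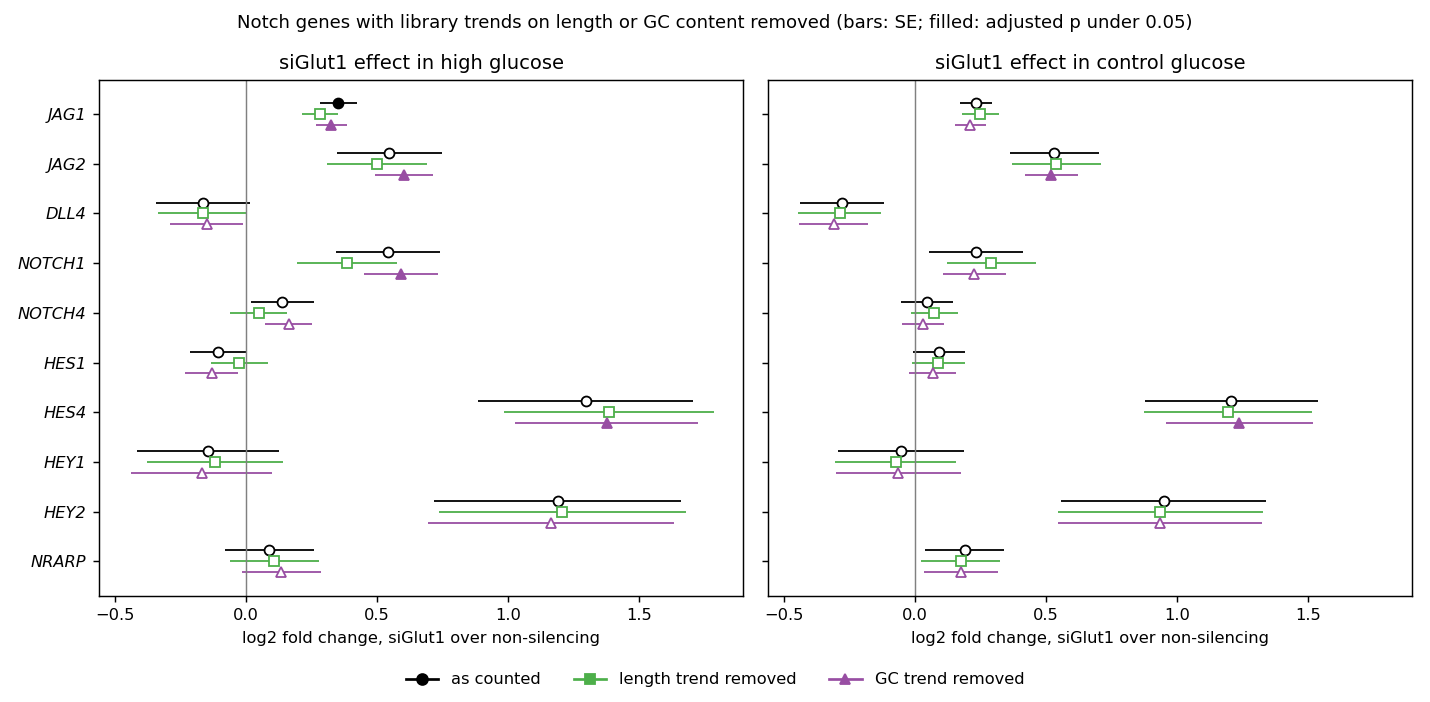
Log2 fold change of siGlut1 over non-silencing siRNA for the 10 Notch genes in high glucose (left) and control medium (right), as counted (black circles), with each library's trend on gene length removed (green squares) and with its trend on GC content removed (purple triangles); bars are 1 SE and filled points passed the adjusted threshold. With the GC trend removed NOTCH1, JAG2 and HES4 passed beside JAG1 in high glucose, and with the length trend removed JAG1 did not pass.

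The second question is what high glucose does. None of the 10 genes was called with either siRNA. With non-silencing siRNA 0 of 14334 genes were called by edgeR, beside 774 (5.4%) at an unadjusted p under 0.05 and 33 called by DESeq2. With siGlut1 2 genes were called (0.014%). These comparisons share their libraries with those of siGlut1 above, so a low non-silencing high library enters both.

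HES4 had the largest difference of the 10 with high glucose. From the values above, its 3 siGlut1 high libraries lay below its 3 siGlut1 control libraries, and its 2 non-silencing high libraries below its 3 non-silencing control libraries. Such a separation was met by 11.7% of all genes with siGlut1 and by 9.21% with non-silencing siRNA. The mean was 1.49 ± 0.606 (SD, n = 3) CPM in siGlut1 high against 2.91 ± 0.486 (SD, n = 3) CPM in siGlut1 control libraries, and 0.608 ± 0.0343 (SD, n = 2) CPM in non-silencing high against 1.27 ± 0.46 (SD, n = 3) CPM in non-silencing control libraries. The difference was -0.96 ± 0.32 SE with siGlut1 (adjusted p = 0.221). Under non-silencing siRNA it was -1.05 ± 0.41 SE (adjusted p = 0.916). Averaged over both siRNAs, a comparison added after seeing the data, HES4 gave -1.01 ± 0.26 SE (adjusted p = 0.123), where 59 genes (0.412%) were called. Without non-silencing control 3 the average was called (-1.13, adjusted p = 0.0306), and DESeq2 called it too (-1.01, adjusted p = 0.0104).

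Across genes, the differences with high glucose went with GC content, with a Spearman's rho of -0.52 with siGlut1 and -0.36 with non-silencing siRNA over 12692 genes, which are not independent replicates. HES4 is the most GC-rich of the 10. With the GC trend removed its differences were -0.54 with siGlut1 (adjusted p = 0.447), -0.68 under non-silencing siRNA (adjusted p = 0.865) and -0.61 averaged (adjusted p = 0.267). HEY2 had no such shift. It gave -0.54 ± 0.38 SE with siGlut1 (adjusted p = 0.532), -0.78 ± 0.47 SE under non-silencing siRNA (adjusted p = 0.932) and -0.66 ± 0.3 SE averaged (adjusted p = 0.301), and -0.66 averaged with the GC trend removed. NOTCH1 gave -0.35 ± 0.2 SE under non-silencing siRNA (adjusted p = 0.919), and -0.21 with the GC trend removed. Over all 10 genes the differences ran from -0.96 to 0.06 with siGlut1 and from -1.05 to 0.07 with non-silencing siRNA, with medians of -0.1 and -0.16, beside -0.02 over all genes in both.

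Whether the siRNA acted differently in the 2 media was tested as an interaction. None of the 10 passed, with log2 differences of -0.2 to 0.31 and an adjusted p of 0.999 for each. Over all genes 0 were called by edgeR, beside 394 (2.75%) at an unadjusted p under 0.05. The call of JAG1 in high glucose alone therefore does not show a larger effect there.

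Other parts of the pathway were read from 86 listed genes, also chosen with earlier results of these data known, of which 77 were tested. With siGlut1 5 rose and 1 fell in high glucose, 3 rose and 1 fell in control medium, and 13 rose and 3 fell in the average, beside 2.46%, 1.7% and 7.93% of all genes called higher and 1.65%, 1.26% and 6.49% called lower. Medians of the 77 were 0.08, 0.04 and 0.07. With high glucose 0 of the 77 were called with either siRNA.

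APH1B, a subunit of gamma-secretase that helps to assemble the protease, rose in both media. It averaged 40.9 ± 1.59 (SD, n = 3) CPM in siGlut1 high against 25.1 ± 0.982 (SD, n = 2) CPM in non-silencing high libraries, and 40.9 ± 1.55 (SD, n = 3) CPM in siGlut1 control against 25.6 ± 0.764 (SD, n = 3) CPM in non-silencing control libraries. Its differences were 0.71 ± 0.08 SE in high glucose (adjusted p = 0.00202) and 0.67 ± 0.07 SE in control medium (adjusted p = 0.000934), ninth and seventh by p among all tested genes. The call in high glucose ended without non-silencing high 3 (0.67, adjusted p = 0.0584). Of the 9 genes for processing of the receptor, APH1B was the only one called in a single medium. NCSTN, another subunit of gamma-secretase, joined it in the average at 0.25.

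CTBP1, a corepressor that RBPJ complexes use to keep targets silent, fell by 0.7 ± 0.14 SE in high glucose (adjusted p = 0.0229) and by 0.65 ± 0.13 SE in control medium (adjusted p = 0.0245). Both calls depended on single libraries. In high glucose the call ended without non-silencing high 3 (-0.46, adjusted p = 0.22) or siGlut1 high 1, 2 or 3 (adjusted p = 0.0656 to 0.0791), and in control medium without non-silencing control 1, siGlut1 control 1 or siGlut1 control 3 (adjusted p = 0.0651 to 0.0803), or in a fit of only these groups (adjusted p = 0.0752). Of the 19 nuclear genes it was the only one called in a single medium. In the average 4 of the 19 were called higher, against 7.93% of all tested genes, among them MAML2, TLE1 and HDAC1 at 0.35, 0.26 and 0.15. The 2 called lower, against 6.49% of all tested genes, were CTBP1 and CIR1, which links RBPJ to deacetylases and was at -0.31. RBPJ itself was not called, at 0.16 in high glucose and 0.06 in control medium.

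HES2, another repressor of the HES family, rose by 0.53 ± 0.1 SE in high glucose (adjusted p = 0.0166) and by 0.53 ± 0.09 SE in control medium (adjusted p = 0.0111). It averaged 43.5 ± 5.4 (SD, n = 3) CPM in siGlut1 high against 30.2 ± 0.201 (SD, n = 2) CPM in non-silencing high libraries, and 46.9 ± 0.622 (SD, n = 3) CPM in siGlut1 control against 32.5 ± 0.518 (SD, n = 3) CPM in non-silencing control libraries. The high-glucose call ended without either non-silencing high library (adjusted p = 0.135 and 0.141) or siGlut1 high 2 or 3 (0.0634 and 0.0546).

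Of 14 tested arterial and venous genes tied to Notch, 3 were called higher in high glucose, 1 in control medium and 5 in the average, and 0 lower. Over all tested genes 2.46%, 1.7% and 7.93% were called higher and 1.65%, 1.26% and 6.49% lower. The 14 ran from -1.41 to 0.72 in high glucose and from -0.34 to 0.51 in control medium. In each medium 5 of them were below 0, and the medians were 0.09 and 0.08. Those called were receptors of VEGF and of a chemokine. FLT1, a decoy receptor for VEGF, rose by 0.72 ± 0.12 SE in high glucose (adjusted p = 0.0114) and KDR, the main signalling receptor for VEGF, by 0.44 ± 0.11 SE (adjusted p = 0.048). CXCR4, a chemokine receptor of tip and arterial cells, rose by 0.7 ± 0.1 SE there (adjusted p = 0.005). FLT4, the receptor for VEGF-C, rose by 0.51 ± 0.12 SE in control medium (adjusted p = 0.0434), and the coreceptor NRP1 joined the 4 in the average at 0.2. These calls rest on few libraries. Without either non-silencing high library, those of FLT1 (adjusted p = 0.125 and 0.0928), CXCR4 (0.0862 and 0.0597) and KDR (0.19 and 0.274) ended, as did KDR's without any siGlut1 high library. FLT4's ended without any 1 control library other than non-silencing control 2 (adjusted p = 0.0817 to 0.121), without both replicates numbered 3 (0.124) and in a fit of only these groups (0.103). FLT1 also lost its call with the length trend removed (0.50, adjusted p = 0.066), as did KDR (0.37, adjusted p = 0.0744).

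The remaining lists gave no call in a single medium. Among other ligands and receptors 5 of 8 were tested, with a range of -0.61 to 1.25 in high glucose and -0.17 to 0.78 in control medium. NOTCH2 shares reads with its near-identical copies of the NOTCH2NL family, so its counts are uncertain. The 7 tested glycosylation genes ran from -0.24 to 0.18 in high glucose and from -0.24 to 0.27 in control medium. The 5 tested endocytosis genes ran from -0.85 to 0.12 in high glucose and from -0.84 to 0.02 in control medium, and EPN2, an adaptor for ligand uptake, fell by 0.2 in the average, a call that ended without non-silencing high 3 (-0.19, adjusted p = 0.0575). The 13 negative regulators ran from -0.25 to 0.54 in high glucose and from -0.26 to 1.3 in control medium, and DTX3L, a ubiquitin ligase of the Deltex family, rose by 0.49 in the average, a call that also ended without non-silencing high 3 (0.43, adjusted p = 0.0556).

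Within groups the 10 genes did not move as one. With group means removed, Pearson's r over the 11 libraries was 0.93 between JAG2 and NOTCH1, 0.85 between NOTCH4 and NRARP, 0.79 between NOTCH1 and NOTCH4 and 0.78 between HES1 and NRARP. It was -0.84 between JAG1 and NRARP and -0.82 between HEY2 and NRARP, while JAG1 and HEY2 gave 0.77 with each other. The GC-rich JAG2, NOTCH1, NOTCH4, DLL4 and NRARP had positive values with each other, from 0.56 to 0.93, while HES4, the richest in GC, gave 0.13 to 0.54 with them. The points share library depth and the GC trends above, whose part was not tested. Among 10567 genes with a mean of at least 2 CPM, the closest to each was SHANK3 for NOTCH1 (r = 0.98), RREB1 for NOTCH4 (0.98), INF2 for JAG2 (0.99), SLC5A6 for JAG1 (0.97), PIR for DLL4 (0.97), SLC25A42 for HES1 (0.97), NHEJ1 for HES4 (0.97), EXOSC10 for HEY2 (0.98), NPIP for HEY1 (0.95) and IGFBP7 for NRARP (0.99). None of the 10 had another of the 10 as its closest gene, but HES4 averaged less than 2 CPM and could not be picked. Taking the highest r among 10567 genes over 11 libraries favours high values, so these picks say nothing on links among the 10.

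**Figure D5:**
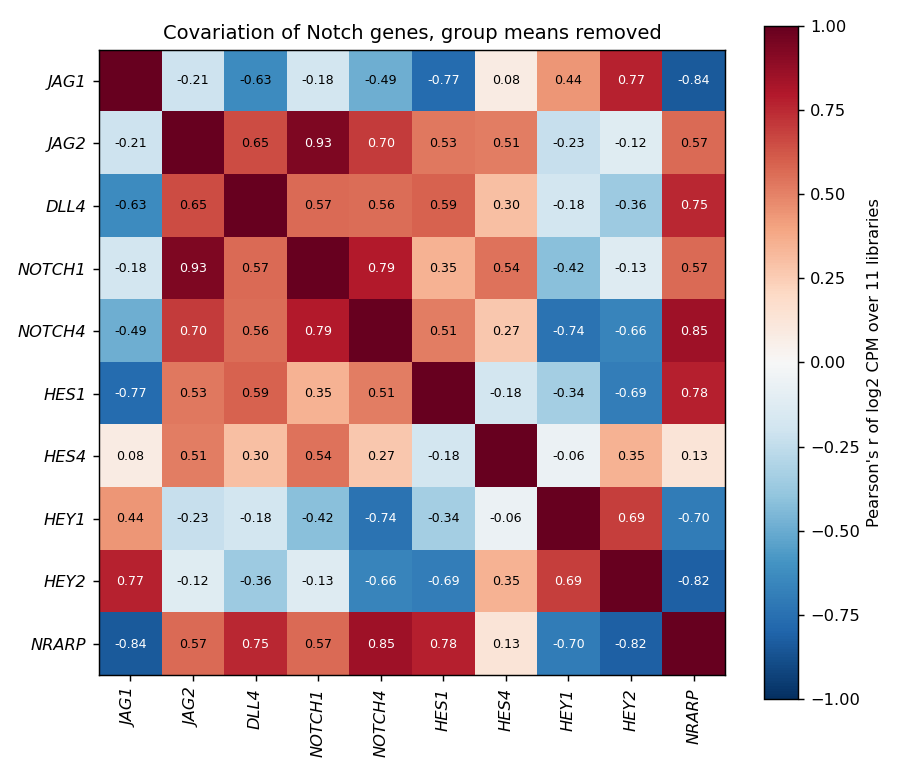
Pearson's r between the 10 Notch genes over 11 libraries on log2 CPM with group means removed; red is positive and blue negative. JAG2 and NOTCH1 gave 0.93, and NRARP gave -0.84 with JAG1 and -0.82 with HEY2.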

How the data were processed

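The deposited table gives, per gene and sample, whole-number counts and RPKM values that the authors made, per the file headers. The submitters' processing notes name hg19 and DESeq2 without versions. The sources used here do not give the aligner, the counting tool, the annotation or the use of strand, and the labels name 2 library kits without saying which was used. All counts in the 11 columns used were even. Deposited RPKM values rest on a total 1.05 to 1.07 times the sum of counts and were used only for levels between genes.

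Counts of 23297 entries (101 of 23398 had a repeated symbol) were fitted in R 4.3.3 with edgeR 4.0.16, using filterByExpr, TMM factors (0.975 to 1.03) and 4 groups without a replicate block. Quasi-likelihood F tests were two-sided, with Benjamini-Hochberg adjustment over 14334 genes and a threshold of 0.05, and were tested on simulated data. CPM used TMM-scaled totals, with a prior count of 2 on the log2 scale. GC content is that of the longest GENCODE transcript, matched for 88.5% of tested genes. The alternatives included DESeq2 1.42.0, filters, trends on length and GC, and each library left out.

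The members and gene lists were chosen with earlier results of these data known. The text names all 10 members, SLC2A1, and pathway genes past the threshold, at most 12 per comparison by smallest p. NCSTN, MAML2, TLE1, HDAC1, CIR1, NRP1, RBPJ and NOTCH2 fall outside that rule and were named after their values were seen.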

Additional observations from a re-analysis of the deposited data

How the results depend on the processing

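Of the alternatives run on the reported values, DESeq2 size factors, the filters on low counts and counts divided by 2 moved no count of calls by over 1.5 times, and KDR's call was the only one they ended. DESeq2 called 3 of the 10 Notch genes with siGlut1 in control medium (all genes 1050), 2 in high glucose (1318) and 1 with averaged glucose (540), and 33 and 432 genes for glucose with non-silencing siRNA and siGlut1. GC trend removal gave 2 (700), 4 (1072) and, for averaged glucose, 34 genes, and length trend removal gave 0 Notch genes in high glucose. With only the groups compared, 70 genes were called for siGlut1 in control medium, 1149 in high glucose and 0 for glucose with siGlut1. Without both control-medium replicates numbered 3, these were 247, 1674 and 735, with 5 Notch genes in high glucose, 48 genes for glucose with non-silencing siRNA, and 2583 genes and 1 Notch gene for averaged glucose, and NOTCH4 turned to -0.034 in control medium. With 1 library left out, genes called ranged from 131 to 319 for siGlut1 in control medium, 6 to 271 in high glucose, 1000 to 2497 averaged, 0 to 2 for glucose with non-silencing siRNA, 0 to 0 with siGlut1 and 0 to 836 for averaged glucose. Notch genes called ranged from 0 to 1 in high glucose, 1 to 4 for averaged siRNA and 0 to 1 for averaged glucose. In control medium NOTCH4 ranged from -0.076 to 0.12 and HEY1 from -0.25 to 0.16. The causes were not tested. Whether replicate numbers pair the samples cannot be told, as 8 of 15 same-numbered pairs correlated over 0.1, from -0.25 to 0.54. Between the 2 siRNAs within a medium, same-numbered pairs gave 0.09, 0.35 and 0.54 in control medium and 0.23 and 0.19 in high glucose. Differently numbered pairs there gave -0.44 to 0.2 and -0.23 to 0.08. With group means removed, these values depend on each other. With the replicate block FLT4's call in control medium ended (0.51, adjusted p = 0.0508). The Notch genes called remained 0 in control medium, 1 in high glucose and 4 averaged. HES4 and HEY2 rest on 28 to 258 and 36 to 240 counts per library.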

Other observations

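ISG15, a ubiquitin-like modifier that interferon induces, lies 13295 bases from HES4 on chromosome 1 in hg19, and was chosen for its place after the values of HES4 were seen. It rose with siGlut1 by 1.6 ± 0.29 SE in high glucose (adjusted p = 0.0155) and by 1.62 ± 0.25 SE in control medium (adjusted p = 0.00866, quasi-likelihood test of edgeR, adjusted by Benjamini-Hochberg). Its differences with high glucose were -0.55 ± 0.24 SE with siGlut1 and -0.53 ± 0.28 SE with non-silencing siRNA, neither past the threshold (adjusted p = 0.312 and 0.918). Over the 11 libraries Pearson's r of HES4 and ISG15 on log2 CPM was 0.89, and 0.73 with group means removed. With group means removed the other neighbours of HES4 gave r = 0.72 for C1orf170, 0.53 for AGRN, 0.43 for NOC2L, 0.37 for KLHL17 and 0.14 for PLEKHN1, against 0.4, 0.77, 0.56, 0.4 and 0.31 without that step. AGRN, the neighbour on the far side of ISG15, which encodes the matrix protein agrin, gave 0.42 ± 0.26 SE with siGlut1 in high glucose and 0.31 ± 0.23 SE in control medium, neither past the threshold (adjusted p = 0.402 and 0.538). On the other side of HES4, NOC2L, KLHL17, PLEKHN1 and C1orf170 were not called, with averaged siGlut1 differences of 0.1, 0, 0.04 and -0.07.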
